A study of Mus musculus with 6 samples.

Results

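The 9 genes described here encode the hypoxia-inducible factor (HIF) subunits Hif1a, Epas1, Arnt and Arnt2, the oxygen-dependent hydroxylases Egln1, Egln2, Egln3 and Hif1an, and Vhl. They were taken as a list by name, without use of their values, from the 47643 gene identifiers in the files, of which 21717 had a count in at least 1 tumor. All 9 had counts in all 6 tumors, and all 9 passed the filter on low counts, which kept 10416 genes. Each sample was the EPCAM+ fraction, sorted as CD45- epithelial cells, of 1 mammary tumor from an MMTV-PyMT mouse. The study's methods also describe leaving out cells with CD31 or PDGFRα, the proteins of the endothelial marker Pecam1 and the fibroblast marker Pdgfra. The mouse strain was FVB/N-Tg (MMTV-PyVT)634Mul/J, in which a viral promoter active in mammary epithelium drives an oncogene. All 6 mice had received the anti-VEGF-A antibody B20-4.1.1 intraperitoneally at 5 mg/kg, with 2 injections per week for 6 weeks from 7 weeks of age, so every value below is from treated tumors and none from an untreated control. The study sorted its tumors into a low and a high hypoxia class by the tumor area stained for pimonidazole. The labels do not give the class of these 6, so no groups were compared and the tumors are numbered 1 to 6. A relation across the 6 tumors and a difference between the classes cannot be told apart here.

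HIF is a pair of proteins, an oxygen-regulated alpha subunit (HIF-1α from Hif1a, HIF-2α from Epas1) and a stable beta subunit (Arnt or its close relative Arnt2), that binds DNA at hypoxia response elements. In oxygenated cells the prolyl hydroxylases, named PHD2 (Egln1), PHD1 (Egln2) and PHD3 (Egln3), modify the alpha subunits, and the VHL protein then recruits a ubiquitin ligase that leads to their degradation. The asparaginyl hydroxylase FIH (Hif1an) limits the activity of the alpha subunits that remain. This control acts on protein stability, which RNA counts do not measure, while Egln1 and Egln3 are themselves well-known targets of HIF.

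The core of a hypoxia response element is ACGTG or GCGTG, and the promoter of Egln3 is shown because this HIF target was the most abundant of the 9 genes by median. The sequence is the 250 bases before the start site, from RefSeq (GRCm38.p6, minus strand, chr12:54203875-54204124), 5′ to 3′, with each match to the core on either strand in capitals.

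Egln3 promoter: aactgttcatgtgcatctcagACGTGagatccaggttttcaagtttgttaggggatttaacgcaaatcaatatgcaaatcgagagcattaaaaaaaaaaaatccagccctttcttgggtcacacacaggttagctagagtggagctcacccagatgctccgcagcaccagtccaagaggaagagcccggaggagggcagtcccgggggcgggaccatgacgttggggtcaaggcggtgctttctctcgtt

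The match began 229 bases before the start site. For Egln1 there were 2 matches, and for Hif1a 3 matches, of which 2 overlapped as the same 6 letters read on both strands. Short windows around some of these are shown for comparison, with 12 bases on each side of the core, all in GRCm38.p6 and with the core in capitals.

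Egln1, minus strand, chr8:124949306-124949334: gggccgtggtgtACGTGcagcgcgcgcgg
Egln1, minus strand, chr8:124949364-124949392: gcccggcccgccGCGTGcgcgcggccccc
Hif1a, plus strand, chr12:73907785-73907813: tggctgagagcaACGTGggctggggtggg

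RefSeq windows reaching from 250 bases before to 50 bases after a start site were at hand for 8 of the 9 genes, all except Epas1, and for Egln2 there were 2. At least 1 match was found in 6 of these 9 windows (66.7%), those of Arnt, Egln1, Egln3 and Hif1a and both of Egln2. Of the 10432 windows of the genes tested, 63.7% held a match, and 34.7% held 2 or more, so the share among these genes was near that of other genes. A match of 5 letters is a description of the sequence and not a measured binding site.

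The libraries held 2509482 (tumor 2) to 5893246 (tumor 1) counts on genes. The cells carried the luminal epithelial RNA that the sort implies, with the 7 luminal markers summing to 3957 to 4874 CPM (the counts of a gene scaled to a common library total), whereas the 5 endothelial markers summed to 1.59 to 4.12 CPM, Emcn had no count and Cdh5 at most 1. The 7 leukocyte markers summed to 15.95 to 229 CPM and the 5 erythroid markers to 5.66 to 864 CPM, both highest in tumor 3, the 5 fibroblast markers to 14.8 to 21.6 CPM, and the 5 basal epithelial markers to 107 to 376 CPM. The library of tumor 1 stood apart, with a median correlation with the other libraries of 0.788 over 8873 genes against 0.905 to 0.939 for the others, and values that move most without it are given both ways. Mouse identifiers in the labels began with 1 of 2 prefixes, QAF for tumors 1, 4, 5 and 6 and QSD for tumors 2 and 3. Fewer cells of a kind and less RNA per cell cannot be told apart in such bulk samples.

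**Figure D1:**
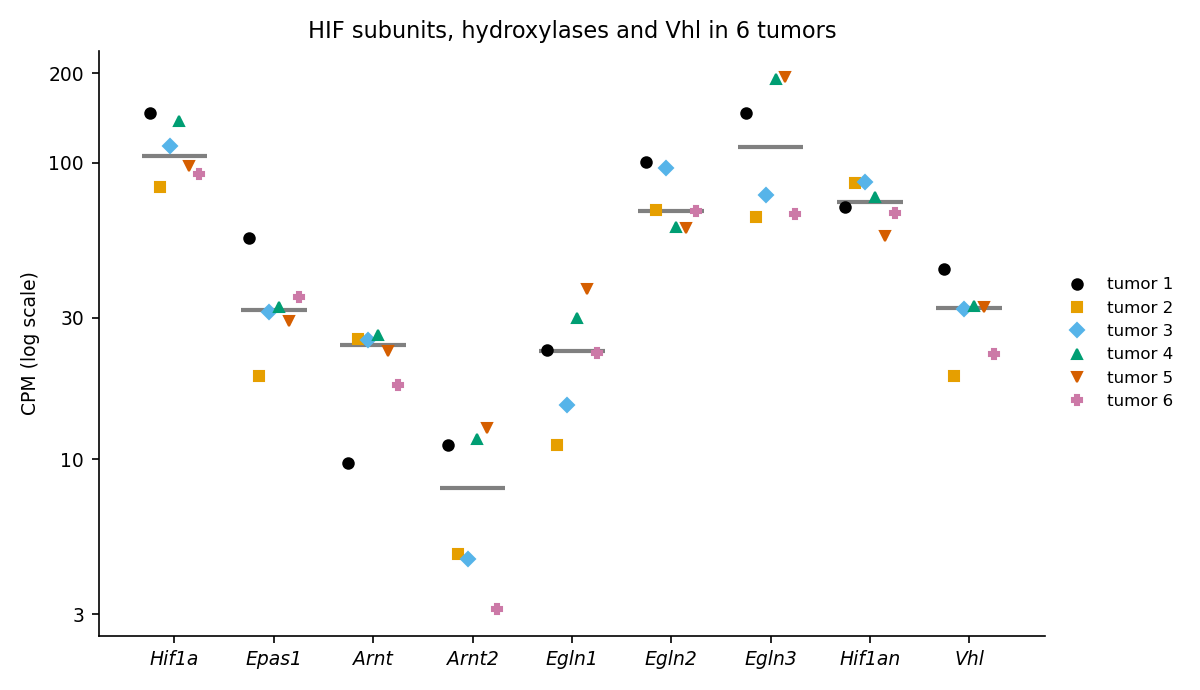
CPM of the 9 genes (log axis) in each of the 6 tumors, with a grey bar at the median. Egln3 spanned 65.4 to 194 CPM, whereas Hif1an stayed between 56.7 and 86.1 CPM, and Arnt was lowest in tumor 1 at 9.67 CPM.

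Among the alpha subunits, Hif1a (ENSMUSG00000021109, chr12:73901375-73947530, plus strand, GRCm38) was an abundant transcript, with a median of 106 CPM that lay at the 92.2nd percentile of genes with a count. It measured 147, 82.9, 113, 138, 97.6 and 91.8 CPM across tumors 1 to 6, in that order. The highest tumor thus exceeded the lowest 1.77-fold, and the value of tumor 5 was the fourth of the 6. A stretch of 330 exon bases of Hif1a is shared with the antisense gene Gm15283, which had 4 to 24 counts against 208 to 865 for Hif1a. Whether the counting used strand was not stated, so these counts are uncertain to that extent.

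Epas1 (ENSMUSG00000024140, chr17:86753700-86833410, plus strand), known for its role in endothelium and also active in many epithelia, was lower, with 55.8, 19.1, 31.3, 32.5, 29.2 and 35.1 CPM, taking tumors 1 to 6 in turn. Tumor 1 was high and tumor 2 low, with the other 4 tumors within 29.2 to 35.1 CPM. These levels stood beside at most 4.12 CPM summed over the 5 endothelial markers. As a share of the counts of both alpha subunits, Hif1a took 72.3% (tumor 6) to 81.2% (tumor 2) with a median of 77.7%. The exact 95% binomial intervals, which cover counting error only, ran from 68.7 to 75.7% in tumor 6 and from 75.9 to 85.8% in tumor 2, so these did not overlap. Of the further alpha gene, Hif3a, no count was found in any tumor, which allows a level of up to 0.509 to 1.20 CPM depending on the library (3 counts).

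The beta subunits had fewer counts than the alpha subunits in every tumor. Arnt (ENSMUSG00000015522, chr3:95434388-95497240, plus strand) measured 9.67, 25.5, 25.2, 26.2, 23.2 and 17.8 CPM across tumors 1 to 6, in that order. Tumor 1, whose library stood apart, was the lowest, and the biological coefficient of variation of Arnt (BCV, the spread between tumors that edgeR estimates beyond counting error) was 35.4% with this tumor and 21.5% without it. Arnt2 (ENSMUSG00000015709, chr7:84246278-84410176, minus strand), best known from neurons, was the rarest of the 9 genes, with 12 to 66 counts. It measured 11.2, 4.78, 4.61, 11.7, 12.8 and 3.12 CPM, taking tumors 1 to 6 in turn. The values of tumors 1, 4 and 5 were thus all above 11 CPM and those of tumors 2, 3 and 6 all below 5 CPM.

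Arnt took 64.4 to 85.0% of the beta subunit counts in tumors 2 to 6 and 46.3% in tumor 1 (exact 95% interval 37.3 to 55.6%). Tumor 1 was the only tumor of the 6 in which Arnt2 counts outnumbered those of Arnt, 66 against 57. The counts of both alpha subunits exceeded those of both beta subunits 3.37-fold (tumor 2) to 9.71-fold (tumor 1), and the highest ratio among tumors 2 to 6 was 6.07 in tumor 6. In summed TPM, which takes length into account, the same ratio was 4.59 to 13.1, and 8.32 in tumor 6.

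Of the prolyl hydroxylases, Egln3 (ENSMUSG00000035105, chr12:54178981-54203860, minus strand) was the most abundant by median. It measured 147, 65.4, 77.8, 191, 194 and 67.2 CPM across tumors 1 to 6, in that order, from 164 to 970 counts. Tumors 4 and 5 were highest, tumor 1 next, and the other 3 tumors lay below 78 CPM, so that the range was 2.96-fold. Egln1 (ENSMUSG00000031987, chr8:124908587-124949324, minus strand), the main HIF prolyl hydroxylase of oxygenated cells, was expressed at 23.4, 11.2, 15.3, 29.99, 37.3 and 22.8 CPM, taking tumors 1 to 6 in turn. Its highest value was again in tumor 5 and its lowest in tumor 2, 3.35-fold apart, but tumor 6 was close to tumor 1.

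Egln2 (ENSMUSG00000058709, chr7:27158658-27166802, minus strand), the mainly nuclear member of the family, had a different order. It measured 101, 68.9, 95.5, 60.6, 60.1 and 68.5 CPM across tumors 1 to 6, in that order. Tumors 4 and 5, the highest for Egln3, were the lowest for Egln2. The makeup of the prolyl hydroxylase counts therefore differed between tumors: Egln3 took 67.8% in tumor 4 (exact 95% interval 65.2 to 70.3%) and 66.5% in tumor 5 (64.04 to 68.95%), 54.2% in tumor 1 (51.7 to 56.7%), and 41.3 to 44.9% in tumors 2, 3 and 6. Egln2 took 20.6% (tumor 5) to 50.6% (tumor 3), and its share was above that of Egln3 in tumors 2, 3 and 6, beyond overlap of the exact intervals only in tumor 3. The share of Egln1 was 7.67 to 14.4%, highest in tumor 6. Shares of TPM, which corrects counts for gene length before scaling, gave Egln3 43.2 to 70.5%.

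**Figure D2:**
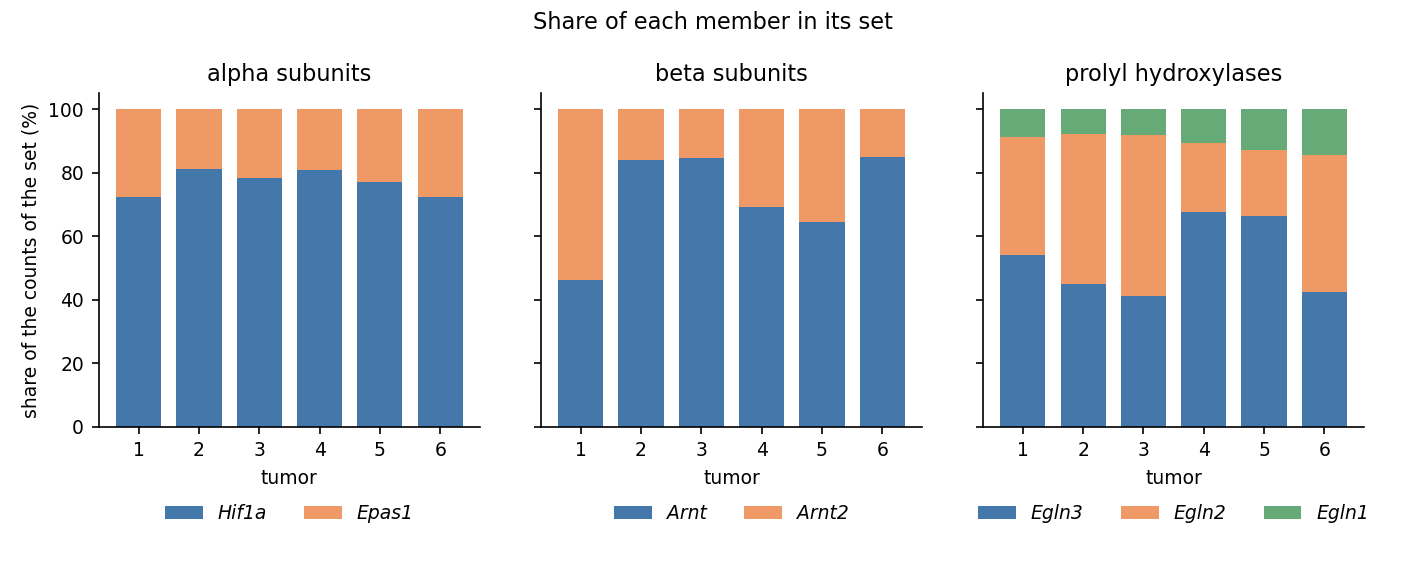
Share (%) of each gene in the counts of the alpha subunits, the beta subunits and the prolyl hydroxylases, with 1 bar for each of the 6 tumors. Hif1a took at least 72.3% of the alpha counts in all tumors, whereas Egln3 ranged from 41.3% to 67.8% of the prolyl hydroxylase counts.

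The prolyl hydroxylase counts exceeded the alpha subunit counts in all 6 tumors, by 1.25-fold (tumor 6) to 2.30-fold (tumor 5), with 1.65-fold in tumor 4 and 1.25- to 1.43-fold in the other 4. In summed TPM the ratio was 2.57 (tumor 6) to 4.80 (tumor 5), so tumor 5 was highest on both scales. Hif1an (ENSMUSG00000036450, chr19:44562850-44576274, plus strand), the FIH gene, varied least over the 6 tumors, with 70.9, 85.3, 86.1, 76.6, 56.7 and 67.7 CPM, taking tumors 1 to 6 in turn. Its lowest value was in tumor 5, where Egln1 and Egln3 were highest. Vhl (ENSMUSG00000033933, chr6:113623959-113631633, plus strand) measured 43.8, 19.1, 32.01, 32.8, 32.5 and 22.6 CPM across tumors 1 to 6, in that order. The values of tumors 3, 4 and 5 lay within 1 CPM of each other, with tumor 1 above and tumors 2 and 6 below.

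The spread between tumors was widest for Arnt2, Egln3 and Egln1, with and without tumor 1, and narrowest for Hif1an with tumor 1 and for Arnt without it. The BCV was 43.7% for Arnt2, 41.2% for Egln3 and 37.4% for Egln1, and 27.3% for Hif1an, 28.4% for both Hif1a and Egln2 and 29.4% for Vhl, beside a median of 32.3% over the 10416 genes tested. Relative to the trend for genes of like abundance, Arnt2 lay at the 87.9th percentile, Egln3 at the 86.3rd, Egln1 at the 75.6th and Hif1an at the 13.6th. Without tumor 1 the percentiles were 97.6 for Egln3, 95.2 for Arnt2 and 93.4 for Egln1, while that of Hif1an moved to 36.01 (BCV 22.2%) and that of Arnt from 66.4 to 8.72 (BCV 21.5%).

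Between genes, levels were compared per length, as TPM over the union of the exons in GENCODE M21. Because the libraries were made from the 3′ ends of transcripts, a read does not become more likely with length, so the order in CPM is given too. By median TPM the order was Egln3 (108), Egln2 (62.5), Hif1a (45.1), Hif1an (29.0), Vhl (27.1), Egln1 (16.2), Epas1 (14.7), Arnt (7.60) and Arnt2 (2.69). Of the 8 pairs of neighbours in this order, 3 differed in a two-sided exact sign-flip permutation test on the log2(TPM + 0.5) differences within tumors, with an adjusted p of 0.0388 over all 36 pairs: Hif1a was higher than Hif1an, Vhl higher than Egln1 and Epas1 higher than Arnt, each in 6 of 6 tumors. The other 5 neighbours did not pass. Egln3 was above Egln2 in 4 of 6 tumors, with a mean log2 difference of 0.65 ± 0.88 (SD, n = 6, exact p = 0.188), and Egln1 above Epas1 in 3 of 6, by 0.06 ± 0.58 (SD, n = 6, exact p = 0.844). Of all 36 pairs, 29 passed at an adjusted p of 0.05, and the same number had the same order in every tumor. The smallest p the test allows with 6 tumors is 0.0312. The steps from Hif1a to Hif1an, Vhl to Egln1 and Epas1 to Arnt did not pass in CPM, which does not use length. There Hif1a was above Hif1an in 5 of 6 tumors (adjusted p = 0.0865 by the same exact permutation test). Vhl was above Egln1 in 4 of 6 (adjusted p = 0.225) and Epas1 above Arnt in 5 of 6 (adjusted p = 0.194).

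By median CPM the order was Egln3 (112), Hif1a (106), Hif1an (73.8), Egln2 (68.7), Vhl (32.3), Epas1 (31.9), Arnt (24.2), Egln1 (23.1) and Arnt2 (7.99), and 24 of the 36 pairs passed the same test. Only the steps from Egln2 to Vhl and from Egln1 to Arnt2 passed between neighbours on this scale (adjusted p = 0.0469 by the same exact permutation test). On both scales Egln3 came first, Arnt2 last and Egln1 below the other prolyl hydroxylases. In CPM the first place rested on tumors 1, 4 and 5: with any 1 of these left out the median of Egln3 was 77.8 CPM, below the 97.6 to 113 CPM of Hif1a, and that of Arnt2 was 4.78 CPM.

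The study classed its tumors by staining for pimonidazole, a hypoxia marker, and staining values were not used here. For an RNA score it averaged the TPM of Vegfa (the growth factor the antibody binds), Slc2a1 (a glucose transporter) and Car9 (a carbonic anhydrase). These are targets of HIF, and none of them is among the 9 genes. For tumors 1 to 6 this score was 48.5, 37.2, 51.4, 76.6, 94.4 and 47.3 TPM. Tumors 4 and 5 were the highest and the other 4 lay close together. Vegfa, Slc2a1 and Car9 were each highest in tumor 5 (139, 212 and 46.5 CPM) and second highest in tumor 4.

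None of the 9 genes passed an adjusted p of 0.05 in edgeR's quasi-likelihood test of the slope on log2 of the score, and neither did any of the other genes tested (0.0% of 10416). At an unadjusted p of 0.05, 3 of the 9 had a positive slope, Egln3, Egln1 and Arnt2, and none a negative one, beside 4.4% of all genes in either direction and 2.47% upward. On the log2 scale, Egln3 changed by 1.19 per doubling of the score (SE 0.37, unadjusted p = 0.00906, adjusted p = 0.943), Egln1 by 1.02 (SE 0.37, unadjusted p = 0.0205) and Arnt2 by 1.10 (SE 0.48, unadjusted p = 0.0457), the last 2 with the same adjusted p. Over the alternative settings the adjusted p of Egln3 ran from 0.140, without tumor 1, to 1.00. DESeq2 called 18 genes, none of them among the 9, and gave Egln3 an adjusted p of 0.512.

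The slopes of the alpha subunits were 0.15 (SE 0.35) for Hif1a and -0.05 (SE 0.45) for Epas1, both smaller than their error and with a sign that changed when single tumors were left out. The slope was 0.16 (SE 0.44) for Arnt, -0.39 (SE 0.33) for Egln2, -0.34 (SE 0.31) for Hif1an and 0.31 (SE 0.37) for Vhl, beside a median of -0.04 over all genes. With the identifier prefix as a term, the slope was 0.90 (SE 0.45) for Egln3, 0.63 (SE 0.38) for Egln1 and 0.81 (SE 0.59) for Arnt2, and none of the 9 had an unadjusted p under 0.05. Both tumors of the QSD prefix were in the lower part of the range for these 3 genes, and among the 4 tumors of the QAF prefix, tumors 4 and 5 were the highest for each of the 3 as for the score, with no correlation computed there. The summed basal markers were also highest in tumor 5 (376 CPM), followed by tumors 1, 6, 4, 2 and 3 (252, 218, 153, 131 and 107 CPM), and their part in these slopes was not tested.

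**Figure D3:**
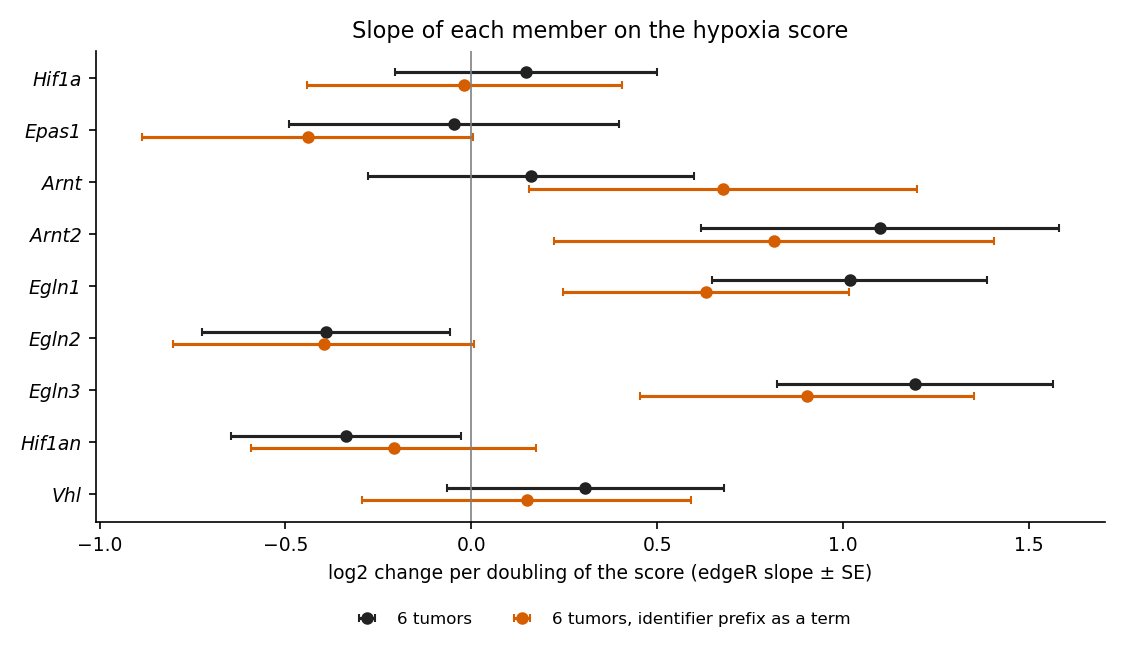
Slope of each of the 9 genes, as the log2 change per doubling of the 3-gene score with its SE, for the 6 tumors (black) and with the identifier prefix as a term (orange). Egln3, Egln1 and Arnt2 had slopes of 1.19, 1.02 and 1.10, and 0.90, 0.63 and 0.81 with the prefix.

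As single values, the correlation with log2 of the score was r = 0.84 for Egln3 (two-sided exact permutation p = 0.025) with a rho of 0.77 (exact permutation p = 0.103), and r = 0.82 for Egln1 (exact permutation p = 0.0611) with a rho of 0.77 (exact permutation p = 0.103). For Arnt2 it was r = 0.72 (exact permutation p = 0.153) with a rho of 0.71 (exact permutation p = 0.136). Of the 9 relations none passed after adjustment over the 9 (0.225 for Egln3). Tumors 4 and 5 had the scores most distant from the median. Without both, r fell to 0.36 for Egln3, 0.53 for Egln1 and 0.09 for Arnt2, so its size depended on those 2 tumors. The scores left spanned only 37.2 to 51.4 TPM, too little to judge a relation. Without tumor 4 alone r was 0.79 for Egln3, 0.78 for Egln1 and 0.65 for Arnt2. Without tumor 5 alone it was 0.79, 0.73 and 0.61. Hif1an had r = -0.75 (exact permutation p = 0.0847) with a rho of -0.54 (exact permutation p = 0.297). Its r was -0.73 without tumors 4 and 5, but -0.31 without tumor 5 alone and -0.95 without tumor 4 alone. Tumor 1 was the exception to the order of the score, with 147 CPM of Egln3 and 11.2 CPM of Arnt2 at a score close to those of tumors 3 and 6. The genes of the score differed in tumor 1. Its Slc2a1 (156 CPM) was below only that of tumors 4 and 5, but its Vegfa (36.3 CPM) and Car9 (8.82 CPM) were the lowest of all tumors. As a geometric mean of these genes, the score of tumor 1 was also the lowest, 29.0 against 29.7 in tumor 2 and 85.4 in tumor 5. For Egln2 (r = -0.66, exact permutation p = 0.157; rho = -0.49, exact permutation p = 0.356) the sign turned to positive, 0.78, without tumors 4 and 5.

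**Figure D4:**
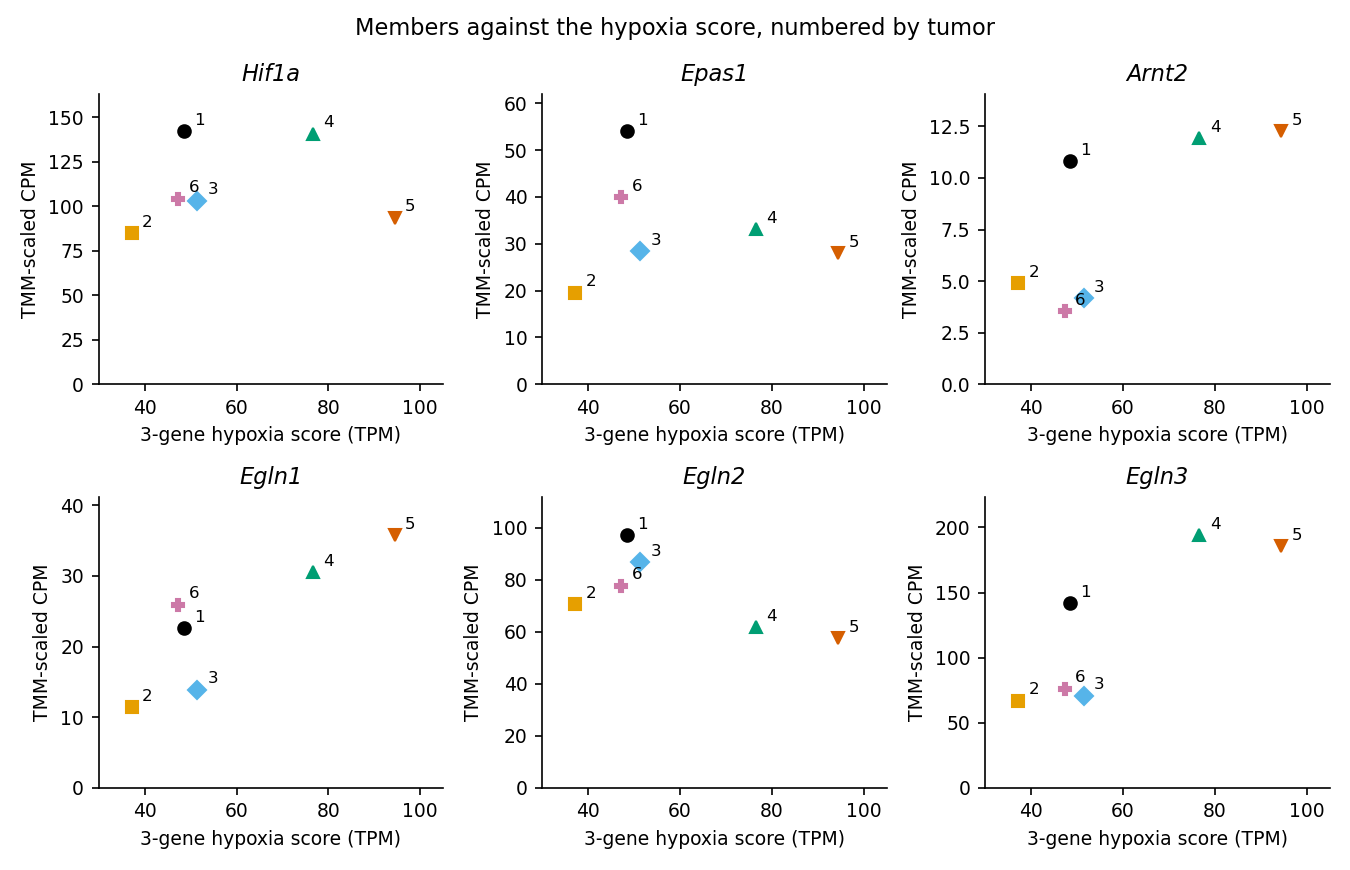
TMM-scaled CPM (TMM being edgeR's scaling of libraries) of Hif1a, Epas1, Arnt2, Egln1, Egln2 and Egln3 against the 3-gene score (TPM), with points numbered by tumor. Tumors 4 and 5 lie at 76.6 and 94.4 TPM, apart from the other 4, and tumor 1 lies high for Egln3 and Arnt2 at 48.5 TPM.

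Among the 9 genes themselves, 20 of 36 pairs were positively correlated, and no pair passed after adjustment over the 36 (lowest adjusted p = 0.392 by exact permutation). The closest pair was Arnt2 and Egln3, for which tumors 1, 4 and 5 lay apart from tumors 2, 3 and 6 on both axes, so no pooled coefficient is given. In CPM, the 3 highest tumors were 1, 4 and 5 for 4 of the 9 genes (Arnt2, Egln1, Egln3 and Vhl), as for 5.76% of the genes tested. For Vhl, however, tumor 3 was within 1 CPM of tumors 4 and 5. For Egln1, tumor 1 was only just above tumor 6 in CPM (23.4 against 22.8). In TMM-scaled CPM it was below tumor 6 (22.6 against 25.9). Hif1a and Vhl had r = 0.83 (exact permutation p = 0.0375, rho = 0.77 with exact permutation p = 0.103, and r = 0.63 without the 2 farthest tumors). Hif1a and Epas1 had r = 0.78 (exact permutation p = 0.0653, rho = 0.94 with exact permutation p = 0.0167, and 0.88 with the 2 farthest tumors left out). The relation of Epas1 and Arnt, r = -0.82 (exact permutation p = 0.0417; rho = -0.60, exact permutation p = 0.242), was -0.32 without the 2 farthest tumors. None of these held after adjustment.

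Among 8872 genes averaging 10 CPM or more over the 6 tumors, those most like Egln3 in their pattern were Tcp1 (r = 0.97), Agpat5 (0.97) and Macc1 (0.97). Tcp1 encodes a subunit of the cytosolic chaperonin, at 138 to 183 CPM. Those most like Egln1 were Mex3d (1.00 at 2 decimals), the kinase gene Vrk1 (0.99) and Strap (0.99), and those most like Hif1a were the kinase gene Mapk9 (0.99), the endosomal ATPase gene Vps4b (0.99) and Bloc1s6 (0.99). The genes named are the highest of these 8872, each compared over 6 points. Of the 8872, 45 genes reached r = 0.9 with Egln3, 83 with Egln1 and 80 with Hif1a.

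Of the partners of VHL in its ubiquitin ligase, 0 of 4 passed in the edgeR fit on the score, also at an unadjusted p of 0.05, with a median slope of 0.20. The elongin gene Elob had a median of 140 CPM, and Rbx1, the RING subunit, 94.7 CPM. Of the 16 cofactors and regulators of HIF stability, 15 could be tested and 0 passed at either threshold (median slope -0.12). The most abundant were the chaperone Hsp90ab1 (median 4370 CPM) and Rack1 (1372 CPM). Of 13 other genes with a PAS domain, the fold that joins HIF subunits, 8 could be tested and 0 passed at either threshold (median slope -0.16), with Clock (64.4 CPM) and Ncoa3 (63.3 CPM) the highest.

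Among 14 other oxygen-dependent dioxygenases, 13 could be tested, 0 passed by edgeR and 3 had a positive slope at an unadjusted p of 0.05, beside 2.47% of all genes upward. These 3 were chosen after their values were seen: P4ha2 and P4ha1, which hydroxylate collagen, and the histone demethylase Kdm3a. P4ha2 measured 7.76 to 8.39 CPM in tumors 1, 2, 3 and 6, 17.7 in tumor 4 and 46.1 in tumor 5, a slope of 1.97 (SE 0.39, adjusted p = 0.449 by edgeR). DESeq2 called it, with a slope of 1.98 and an adjusted p of 0.0372, and called no other gene of the lists described here. The slopes of P4ha1 and Kdm3a were 1.43 (SE 0.33) and 1.17 (SE 0.42). All 3 are known HIF targets. The most abundant of the list were the demethylases Kdm5a (286 CPM) and Kdm5c (106 CPM), and the median slope was 0.09.

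Of 18 HIF targets outside the score and the 9 genes, 16 could be tested, 0 passed by edgeR and 2 had a positive slope at an unadjusted p of 0.05, beside 2.47% of all genes upward. These were Adm (adrenomedullin) with a slope of 1.76 (SE 0.43) and Ndrg1 with 1.08 (SE 0.36), both named after their values were seen. The median slope of the list was 0.39, and 12 of 16 were above 0. The lactate dehydrogenase gene Ldha (median 694 CPM) and the lipid droplet gene Plin2 (429 CPM) were the most abundant, with slopes of -0.20 (SE 0.44) and -0.54 (SE 0.58), and both were highest in tumor 1. The listed targets did not all have the same order over the tumors: Adm was highest in tumors 5 and 4, as were Egln3 and Ndrg1, whereas Bhlhe40, also named after its values were seen, was highest in tumors 4 and 2.

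**Figure D5:**
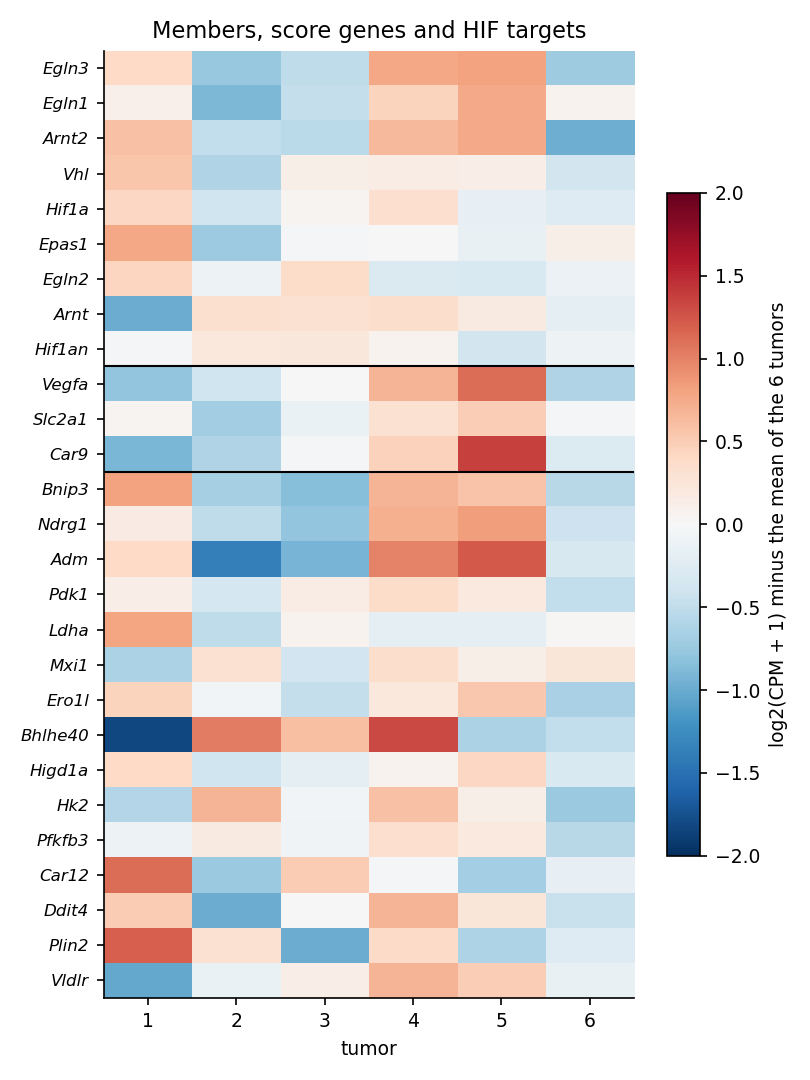
log2(CPM + 1) minus the mean of the 6 tumors for the 9 genes (top), the 3 genes of the score (middle) and the 15 HIF targets with a median of at least 10 CPM (bottom), with 1 column per tumor. Egln3, Egln1 and Arnt2 are above their mean in tumors 1, 4 and 5, with Egln1 also slightly above it in tumor 6, and Bhlhe40 holds the largest difference, 1.82 below its mean in tumor 1.

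When the mean log2 level of 17 of these HIF targets (those averaging 1 CPM or more) was used in place of the 3-gene score, a choice made after the data were seen, r was 0.94 for Egln3 (exact permutation p = 0.00972) with a rho of 0.83 (exact permutation p = 0.0583), and 0.92 for Arnt2 (exact permutation p = 0.025) with a rho of 0.89 (exact permutation p = 0.0333). Neither passed after adjustment over the 9 relations (0.0875 and 0.113). On this measure, as for both genes, tumors 1, 4 and 5 lay above tumors 2, 3 and 6. With the 2 most distant tumors on this measure (3 and 4) left out, r was 0.96 for Egln3 and 1.00 at 2 decimals for Arnt2. That left tumors 1 and 5 apart from tumors 2 and 6 on both axes, so these values restate the split. Over all 6 tumors r was 0.68 for Egln1 (exact permutation p = 0.151; rho = 0.66, exact permutation p = 0.175). For Hif1a it was 0.58 (exact permutation p = 0.235; rho = 0.26, exact permutation p = 0.658). On this measure tumor 1 was the third highest, with a geometric mean of 76.0 CPM, after tumor 4 (95.8) and tumor 5 (80.3), and tumors 2, 6 and 3 followed (63.9, 60.1 and 57.5).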

How the data were processed

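EPCAM+ cells of 6 tumors were profiled with a 3′ mRNA kit with molecular identifiers. The authors deposited unnormalized counts for each gene, 1 file per tumor, made by trimming with bbduk, aligning to GRCm38/mm10 with STAR 2.5 and counting with HTSeq. Whether reads were collapsed by identifier, whether strand was used and the annotation release are not given in the sources used here, so intervals cover counting error only. Each file ends in 5 lines for reads given to no gene (16.1 to 41.4% of reads), which were left out.

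From the counts, CPM and, with GENCODE M21 union exon lengths, TPM were computed. Of the 47643 identifiers, 47224 matched that release, and the other 419 made up no more than 0.0723% of any library. Slopes on log2 of the 3-gene score were fitted across all genes with edgeR 4.0.16 (TMM, filterByExpr with a minimum count of 10 and a minimum total of 15, quasi-likelihood test, Benjamini-Hochberg) in R 4.3.3, with DESeq2 1.42.0 as an alternative. Tested on simulated data for this slope, with 200 of 10111 genes changed by a slope of 2, edgeR recovered 60.0% with 6.98% of calls false, and DESeq2 77.5% with 29.2% false. With a slope of 3 in 200 of 10107 genes, both recovered 82.0%, with 2.38% (edgeR) and 12.8% (DESeq2) of calls false. Among the HIF subunits, the oxygen-dependent hydroxylases of HIF and Vhl, the largest slope in the main fit was 1.19, for Egln3. Slopes of that size were not simulated, so how many such genes the fit would miss is not known. Some genes of the score and of the other lists had larger slopes, such as 1.97 for P4ha2, close to the simulated slope of 2. Correlations used log2(TMM-scaled CPM + 1) and all 720 orders of the tumors (scipy 1.17.1). The labels give each tumor its own mouse identifier, and p-values measure the spread between these 6 tumors.

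The genes and lists were chosen with earlier results of these data known. Named were the 9 genes, the 3 score genes, the 3 genes most like Hif1a, Egln1 and Egln3, and of each list the called genes and the 2 with the highest median CPM. The marker lists were given as sums. Alternatives were another scaling, filter, tool, pseudocount, score, transcript length and the identifier prefix as a term, and leaving out each tumor.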

Additional observations from a re-analysis of the deposited data

How the results depend on the processing

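Of 511 alternative values, 491 counted as unchanged. Slopes and correlations among them kept their direction and side of the threshold, and levels and shares stayed within 1 SD of the tumors. Counts of genes or pairs had a limit on their fold change. The 24 pairs of genes that passed in CPM thus counted as unchanged from the 29 in TPM. The median CPM became 87.7 for Egln2 and 90.4 for Hif1an when the 10 most abundant genes of each library were left out of the total. The number of genes called in the fit on the score was 0 in edgeR, 10 without the filter on low counts and 18 with DESeq2, and between 0 and 2 when 1 tumor was left out. The 2 were Fn1 and n-R5-8s1, called without tumor 1, named here after their values were seen. None of the 9 genes was called under any of the alternatives run. The cause of these changes was not tested. The BCV of Arnt was 21.5% without tumor 1. The median CPM ran from 4.78 to 11.2 for Arnt2 and from 77.8 to 147 for Egln3 when 1 tumor was left out.

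The slope of Hif1a reversed to -0.019 with the identifier prefix as a term. Its correlation with the score reversed to -0.014, and that of Epas1 to -0.21, with the geometric mean of the 3 genes as the score, and that of Arnt to -0.026 with the HIF target list. When each tumor was left out in turn, the slope ran from -0.043 to 0.59 for Hif1a, from -0.50 to 0.31 for Epas1 and from -0.0067 to 0.63 for Arnt, and the correlation from -0.20 to 0.75, from -0.61 to 0.33 and from -0.031 to 0.51. For Egln3, Egln1 and Arnt2 the slope stayed positive with each tumor left out (1.07 to 1.40, 0.84 to 1.19 and 0.94 to 1.44). With the geometric mean of the 3 genes as the score, their slopes were lower, at 0.75 (SE 0.31), 0.65 (SE 0.30) and 0.64 (SE 0.38). Their correlations with that score were 0.70, 0.68 and 0.59.

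No pairing of samples between groups was possible because all tumors form 1 group, and only levels of genes were paired, within each tumor. The exact sign-flip permutation test cannot pass 0.05 with 5 tumors (smallest p = 0.0625), so it was not repeated with tumors left out. The depth limits Arnt2 most, with 12 counts in tumor 2.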
